A study of Sus scrofa with 5 samples.

Results

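This report describes the cells of day 6 pig blastoids that held many transcripts of GABRP together with transcripts of TAC3. Blastoids are cell aggregates with a cavity that resemble a blastocyst. A cell was counted as a member if it held at least 10 UMIs of GABRP, at least 3 UMIs of TAC3, under 10 UMIs of ISG15 and under 10 UMIs of COL3A1 and COL1A2 together. A UMI is a molecular tag that marks 1 captured transcript. Of 15544 cells in both libraries 828 were members, 450 of 7369 in library 1 and 378 of 8175 in library 2. The members were therefore chosen by measured values of these 5 genes, and no test is given for any of them.

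The study made scRNA-seq libraries from 2 samples of blastoids, both from porcine embryonic stem cells (pESCs) and both collected on day 6, and bulk RNA-seq from 3 libraries of pESCs grown in 4FIXY medium. The study derived its pESCs from blastocysts made by parthenogenesis and kept them on mouse embryonic fibroblasts. In the bulk table, however, the name of 1 library begins with IVF and those of the other 2 begin with PA, and the labels do not give the origin of any of the 3. Dissociated pESCs formed clusters in 4FXY medium (4FIXY without IWR1) and were then kept in iBlastoid medium. That medium held LIF, activin A, IGF1, IL-6 with its soluble receptor, BMP4, bFGF, CHIR99021 and SB431542 among others. It also held the WNT inhibitor XAV939, DZNep and TSA. Structures with a cavity were picked by hand, which selects for shape, and were dissociated with trypsin. No untreated or control blastoids were used here, so every comparison is between cells of the same library. Nothing in the labels states that the 2 libraries came from separate cultures, and p-values then measure only the spread between these libraries.

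GABRP encodes the pi subunit of the GABA-A receptor, a chloride channel opened by the transmitter GABA, and its transcript is a known marker of amnion and of epithelia of the reproductive tract. TAC3 encodes the precursor of neurokinin B, a short secreted peptide of the tachykinin family that acts on the receptor TACR3. Neurokinin B is best known from neurons of the hypothalamus that control gonadotropin release, and the human placenta also makes it. In pigs the trophectoderm, the outer epithelium of the blastocyst, elongates and secretes steroids before it attaches to the uterus.

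The TAC3 gene of pig lies on chromosome 5 at 22324927 to 22336464 on the minus strand in Sscrofa11.1 (susScr11), and GABRP lies on chromosome 16 at 53205616 to 53228765, also on the minus strand. RefSeq gives 2 transcripts of TAC3 with 7 exons each, and 2 of GABRP with 10 and 11 exons. The 54 bases of exon 5 of TAC3, at chr5:22328003-22328056 in coding direction, are shown because they hold the peptide that names the gene. The 30 bases in capitals, at chr5:22328025-22328054, are the codons of neurokinin B, and the bases that follow code for the glycine and the basic residues at which the precursor is cut.
TAC3 exon 5: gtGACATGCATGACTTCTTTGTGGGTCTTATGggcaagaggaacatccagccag

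Members made up 6.11% of the cells of library 1 (95% exact binomial interval 5.57 to 6.68) and 4.62% of library 2 (4.18 to 5.10), a mean of 5.37% ± 1.05 (SD, n = 2). The intervals cover counting error only. Their TAC3 count ranged from 3 to 244 UMIs with a median of 9 in library 1, and from 3 to 225 with a median of 8 in library 2. Their GABRP count had a median of 30 UMIs in library 1 and 29 in library 2, where the limit was 10. Members held 62.1% of all TAC3 UMIs of called cells in library 1 and 66.5% in library 2, and 29.5% and 26.1% of all GABRP UMIs. These shares follow in part from the rule, which set limits on both genes.

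Most cells rich in GABRP held little or no TAC3. Of the 1626 cells with at least 10 GABRP UMIs in library 1, 593 held at least 3 TAC3 UMIs, and in library 2 it was 450 of 1517. The reverse was rarer, since only 81 cells of library 1 and 56 of library 2 reached the TAC3 limit without the GABRP limit. The limits on ISG15 and on collagen left out 143 of the 593 cells in library 1 and 72 of the 450 in library 2, which were counted among the other cells. Among cells that met the other limits, on GABRP, ISG15 and collagen, the TAC3 counts showed no gap, with 51 cells at exactly 3 UMIs and 101 at exactly 2 in library 1, and 51 and 89 in library 2. Of these, cells at 3 UMIs had a median of 26 GABRP UMIs in library 1 and 27 in library 2, and cells at 2 UMIs had 23 in both. With TAC3 at the limit or above and the limits on ISG15 and collagen met, 21 cells of library 1 and 15 of library 2 held 10 to 12 GABRP UMIs, just inside the limit, and 15 and 17 cells held 7 to 9, just outside it.

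**Figure D1:**
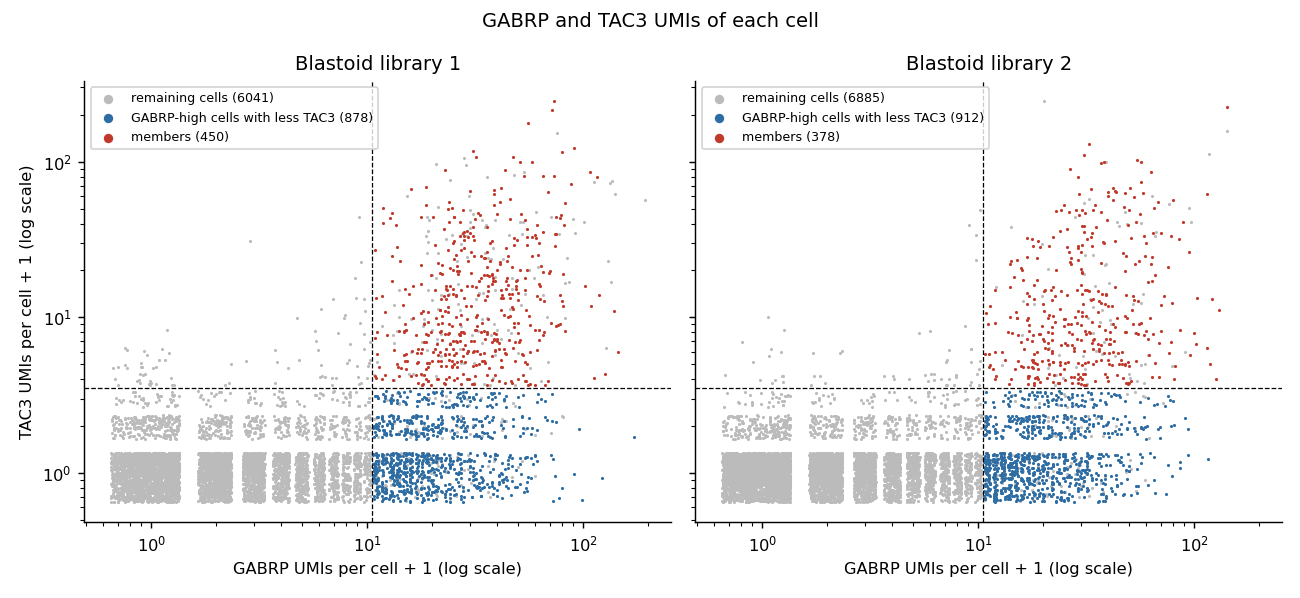
Each point is 1 cell, with its GABRP UMIs plus 1 on the x axis and its TAC3 UMIs plus 1 on the y axis, both on log scales and spread at random by less than 1 UMI for display, in library 1 (left) and library 2 (right). Dashed lines mark the limits of 10 GABRP and 3 TAC3 UMIs, grey points are the remaining cells, and grey points beyond both lines were left out by ISG15 or collagen. No empty band separates the 450 and 378 members in red from the 878 and 912 cells with less TAC3 in blue.

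Below, members are compared with the 1790 cells that met every limit but held only 0 to 2 TAC3 UMIs, called low-TAC3 cells (878 in library 1 and 912 in library 2), and with all 14716 cells that were not members, called other cells, which include the low-TAC3 cells. Members of library 1 held a median of 26621 UMIs per cell and those of library 2 held 24809, fewer than low-TAC3 cells (33162.5 and 31787.5) and other cells (29881 and 27723). The GABRP count of low-TAC3 cells had a median of 17 UMIs in both libraries, against 30 and 29 in members. Members and low-TAC3 cells therefore differ in GABRP as well as in TAC3. The mitochondrial share of UMIs had a median of 0.502% and 0.515% in members and lay between 0.587% and 0.610% in both other groups. Of the members 10.2% in library 1 and 8.20% in library 2 were among the cells with the highest doublet scores, against 7.52% and 10.3% of low-TAC3 cells and 5.61% and 6.46% of other cells. No barcode was shared between members of the libraries. Called cells of the libraries shared 9 barcodes.

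UMIs were summed per group and library, and levels are given as CPM, the count scaled to the sum of its group and expressed per 1e6 UMIs, in library 1 and then in library 2. CPM is not divided by gene length, so levels are compared between groups and not between genes. In members the level of TAC3 was 534.5 and 527.4 CPM, against 12 and 10.9 in low-TAC3 cells and 21.4 and 12.9 in other cells. The RNA of empty droplets, which shows what floats free in the suspension, held 46.3 and 26 CPM of TAC3. GABRP stood at 1026 and 1092 CPM in members, 575.1 and 569.4 in low-TAC3 cells and 160.6 and 149.3 in other cells. When each cell was thinned to 10000 UMIs, 87.8% and 89.9% of members kept a TAC3 UMI, against 15.1% and 13.2% of low-TAC3 cells and 9.06% and 6.54% of other cells. These values follow from the rule.

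Against other cells, edgeR's quasi-likelihood test called 6641 of 20095 genes at an adjusted p under 0.05, which is 33.0%, with 3510 higher (17.5%) and 3131 lower (15.6%) in members. Against low-TAC3 cells it called 2171 of 16297 genes (13.3%), 1311 higher (8.04%) and 860 lower (5.28%). With the library as a replicate block the first comparison called 8981 genes, 4483 higher and 4498 lower, and all 6641 were among them. The second comparison called 4578 genes with the block, 2469 higher and 2109 lower, and all 2171 were among them. The median log2 fold change over all tested genes was -0.03 and -0.003. Counts for gene lists below are to be read against these shares.

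Genes outside the rule that stood furthest above other cells were led by CLVS2, which encodes a lipid-binding protein of endosomes and lysosomes. CLVS2 was at 97.4 and 98.6 CPM in members, 22.6 and 18.6 in low-TAC3 cells and 8.98 and 6.48 in other cells. Its log2 fold change was 3.85 ± 0.14 (SE) against other cells (edgeR adjusted p = 4.4e-06) and 2.32 ± 0.09 against low-TAC3 cells (edgeR adjusted p = 1.3e-06). After thinning, 53.3% and 55.0% of members had a UMI of CLVS2, compared with 5.71% and 4.66% of other cells. Members had the highest level of CLVS2 and other cells the lowest in both libraries.

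SULT1E1, the sulfotransferase that inactivates estrogens, was at 48.2 and 68.0 CPM in members, 22.8 and 23.2 in low-TAC3 cells and 4.94 and 4.72 in other cells, a log2 fold change of 3.76 ± 0.15 against other cells. CEMIP, needed for the breakdown of hyaluronan, was at 82.6 and 75.4 CPM in members, 18.8 and 15.1 in low-TAC3 cells and 8.77 and 5.68 in other cells. Both genes were highest in members and lowest in other cells in both libraries, with low-TAC3 cells between them. VTCN1, the immune checkpoint ligand B7-H4 of placental and other epithelia, followed the same order at 71.3 and 74.9, 32.5 and 31.2, and 9.17 and 7.49 CPM. The metalloprotease gene ADAM28 was at 95.9 and 109.9 CPM in members and 10.9 and 11.1 in other cells.

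The rest of the 15 genes with the largest rise against other cells had log2 fold changes of 3.14 to 3.31. They were GRIP2, which encodes a scaffold protein that binds glutamate receptors, HS6ST3, which sulfates heparan sulfate, the protease PRSS12, the matrix proteins ECM1, THSD4 and CCBE1, the epithelial membrane genes EMP1 and MAL, and S100A6. HS6ST3 stood at 198.3 and 190.7 CPM in members, 62.2 and 69.1 in low-TAC3 cells and 22.8 and 22.1 in other cells. All 15 were also called higher than in low-TAC3 cells.

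Against low-TAC3 cells alone the largest rise was that of NOV, also named CCN3, a secreted matricellular protein. NOV was at 36.9 and 33.7 CPM in members, 6.60 and 5.00 in low-TAC3 cells and 7.55 and 5.60 in other cells (log2 fold change against low-TAC3 cells 2.68 ± 0.12, edgeR adjusted p = 3.7e-06). Low-TAC3 cells did not lie between the other groups for NOV. The same held for PTN, which encodes the heparin-binding growth factor pleiotrophin, at 171.7 and 118.0 CPM in members, 36.5 and 30.1 in low-TAC3 cells and 50.8 and 45.9 in other cells. B2M, the light chain of MHC class I, was at 71.8 and 59.1 CPM in members, 17.1 and 19.6 in low-TAC3 cells and 34.7 and 29.3 in other cells. CST3, which encodes the protease inhibitor cystatin C, was at 1471 and 1461 CPM in members, 499.6 and 478.7 in low-TAC3 cells and 1013 and 738.3 in other cells. Empty droplets held 2485 and 1524 CPM of CST3, more than any of the 3 groups, and the part of free RNA in its level was not tested. For NOV, PTN, B2M and CST3 low-TAC3 cells were the lowest group in library 1 and in library 2.

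The other genes of the 15 with the largest rise against low-TAC3 cells were GRIP2, CCBE1, CLVS2, CEMIP, PRSS12, DGKG, NDRG4, THSD4, ECM1, EPB41L3 and ECE1, with log2 fold changes of 1.65 to 2.53. EPB41L3, which links the membrane to the cytoskeleton, was at 467.4 and 484.3 CPM in members, 161.9 and 146.1 in low-TAC3 cells and 73.1 and 54.9 in other cells. DGKG, a kinase that acts on diacylglycerol, stood at 33.8 and 32.0 CPM in members, 7.87 and 7.82 in low-TAC3 cells and 5.34 and 5.04 in other cells.

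**Figure D2:**
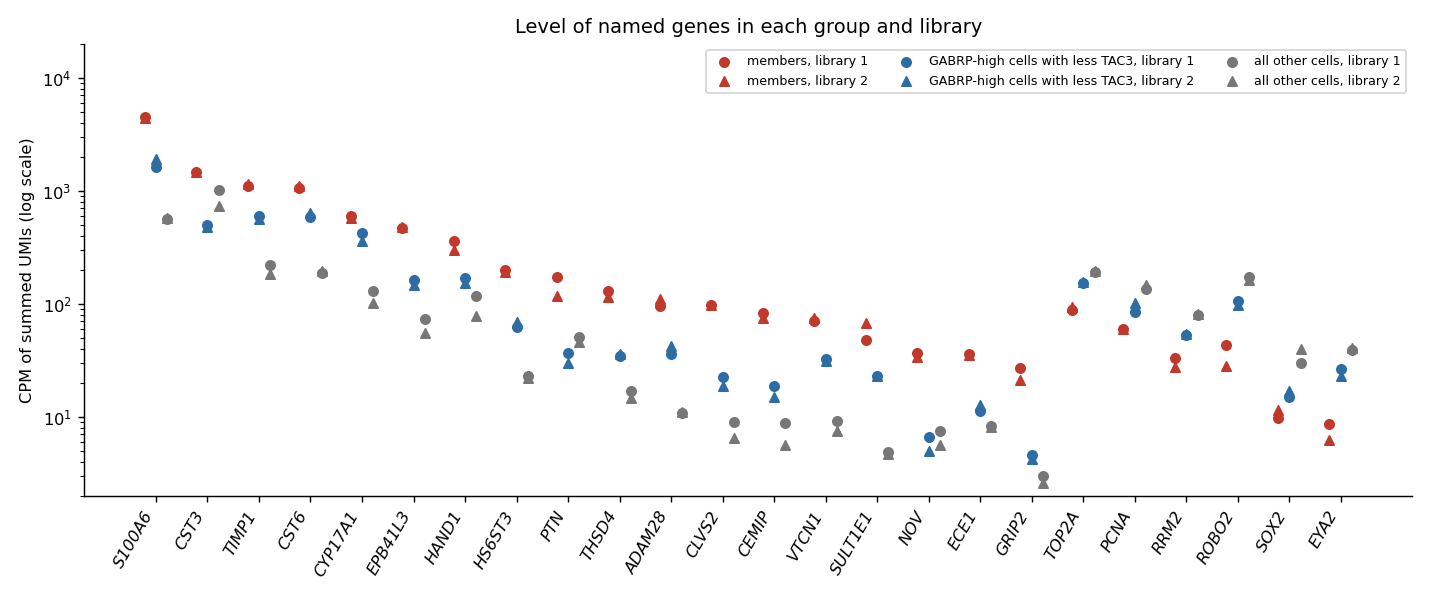
CPM of summed UMIs on a log scale for genes named in the text, with members in red, low-TAC3 cells in blue and all other cells in grey, and library 1 as circles and library 2 as triangles. From S100A6 to GRIP2 both members' points lie above both points of either other group, while from TOP2A to EYA2 they lie below them.

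Of the 9 further genes of the tachykinin list, which holds ligands, receptors and peptidases, 7 passed the filter on low counts against other cells and 2 of them were called, both higher. The other tachykinin precursor genes were rare, with TAC1 at 0.256 and 0.327 CPM in members and TAC4 at 0.0640 and 0.164. TACR3, the receptor of neurokinin B, was at 0.128 and 0.0818 CPM in members, from 2 and 1 UMIs, and at 0.206 and 0.194 in other cells. TACR1, the substance P receptor, was at 15.4 and 7.85 CPM in members, 17.8 and 15.6 in low-TAC3 cells and 21.4 and 17.7 in other cells, and missed the threshold in both comparisons (edgeR adjusted p = 0.12 and 0.26). With the library as a replicate block TACR1 was called lower in both, by a log2 fold change of -0.54 and -0.43. KISS1, the peptide gene coexpressed with TAC3 in the hypothalamus, had no UMI in members. ECE1, a peptidase that cleaves endothelin precursors and several neuropeptides, was at 36.0 and 35.3 CPM in members, 11.2 and 12.8 in low-TAC3 cells and 8.31 and 8.21 in other cells, and it was called higher in both comparisons. MME, or neprilysin, was called higher than in other cells by 0.38 ± 0.11 (log2, edgeR adjusted p = 0.036) and was at 9.72 and 10.9 CPM in members against 9.50 and 10.6 in low-TAC3 cells. MME lost this call with at least 10 TAC3 UMIs (log2 fold change -0.02), with at least 20 GABRP UMIs (0.38), in cells of 20000 to 40000 UMIs (0.37), without the filter on low counts (0.35) and with the limits set as rates per cell total (0.25).

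The other 17 listed subunits of GABA-A and rho receptors were rare in members. GABRG3 held the most UMIs among them, at 13.2 and 11.8 CPM, and it was called lower than in low-TAC3 cells (17.8 and 21.1) and other cells (31.6 and 35.1). GABRD was at 4.86 and 5.40 CPM in members and 2.06 and 2.12 in other cells, and the next was GABRE at 1.34 and 2.04 CPM in members. GAD2, an enzyme that makes GABA, was at 1.34 and 1.23 CPM in members and 3.87 and 4.89 in other cells. The metabotropic receptor gene GABBR1 was called higher in both comparisons, at 56.3 and 59.8 CPM against 48.6 and 50.2 in low-TAC3 cells and 37.6 and 39.6 in other cells. SLC12A2, which encodes the cotransporter NKCC1 that brings chloride into the cell, was at 293.1 and 318.4 CPM in members, 202.2 and 247.8 in low-TAC3 cells and 91.0 and 100.9 in other cells. Against low-TAC3 cells the calls of GABRG3 and GABBR1 were each lost under 5 of the other settings. SLC12A2 was likewise called higher in both comparisons, but lost the call against low-TAC3 cells with at least 20 GABRP UMIs (log2 fold change 0.13), with at least 1 TAC3 UMI (0.28) and without the filter on low counts (0.50). Its counterpart SLC12A5, which exports chloride from neurons, was at 0.704 and 0.736 CPM in members.

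S100 proteins are small calcium sensors, and annexins bind membranes in the presence of calcium. Of 19 listed S100 and annexin genes, 15 were called higher than in other cells and none lower, with a median log2 fold change of 1.06. Against low-TAC3 cells 11 of 18 were higher and none lower, with a median of 0.57. The 11 became 8 with at least 20 GABRP UMIs (median 0.30) and with at least 1 TAC3 UMI (0.36). Without the filter on low counts they also became 8 (0.54), and with limits set as rates 10. They became 12 in cells of 20000 to 40000 UMIs, and 13 with at least 10 TAC3 UMIs and with the replicate block. The summed level of the 19 genes was 10142 and 9945 CPM in members, 5441 and 5745 in low-TAC3 cells and 3454 and 3334 in other cells. S100A6 held the most UMIs of the list in members, at 4517 and 4414 CPM in members, 1636 and 1906 in low-TAC3 cells and 569.5 and 582.3 in other cells. S100A11 was at 1673 and 1660 CPM in members and 884.7 and 843.0 in other cells, and S100A16 at 317.3 and 340.9 against 85.8 and 87.8. ANXA8, an annexin of squamous and placental epithelia, was at 36.0 and 29.8 CPM in members, 19.9 and 18.4 in low-TAC3 cells and 5.18 and 4.56 in other cells. The 9 listed S100A genes all lie on chromosome 4, between 96007026 and 97272517 in Sscrofa11.1.

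Proteases of the matrix and their inhibitors rose in part. Of 20 listed genes 13 were called higher and 2 lower than in other cells, and against low-TAC3 cells 10 of 19 were higher and 1 lower. The 10 became 7 with at least 20 GABRP UMIs, with at least 1 TAC3 UMI and without the filter on low counts. They became 12 with at least 10 TAC3 UMIs and 14 with the replicate block. TIMP1, an inhibitor of matrix metalloproteases, was at 1096 and 1155 CPM in members, 603.9 and 565.2 in low-TAC3 cells and 221.0 and 184.8 in other cells. CST6, which encodes the cysteine protease inhibitor cystatin E/M, was at 1056 and 1098 CPM, then 584.7 and 637.6, then 188.4 and 195.3. PLAU, the urokinase, was called higher in both comparisons, although 4 of the other settings did not call it against low-TAC3 cells. Also called higher in both was its receptor gene PLAUR at 7.16 and 6.54 CPM in members against 2.46 and 2.76 in low-TAC3 cells. SERPINE2 was called lower in both, at 21.5 and 22.5 CPM in members, 34.6 and 36.9 in low-TAC3 cells and 57.5 and 56.4 in other cells.

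Of 21 listed trophectoderm genes that the files hold, 13 were called higher than in other cells, 3 were lower, and 2 fell below the filter on low counts. Against low-TAC3 cells 7 were higher and 2 lower, and the counts moved to 8 and 4 with the replicate block and to 4 and 5 with limits set as rates. HAND1, a transcription factor of trophoblast and of extraembryonic mesoderm, was at 359.9 and 300.0 CPM in members, 170.7 and 153.1 in low-TAC3 cells and 116.9 and 78.1 in other cells. GATA3, the trophectoderm marker used by the study, was at 193.2 and 190.7 CPM, then 174.8 and 164.9, then 127.9 and 120.8, and was called higher in both comparisons, although 5 of the other settings did not call it against low-TAC3 cells. GATA2, its partner marker in the study, was called lower in both, at 49.3 and 45.1 CPM in members, 66.5 and 63.1 in low-TAC3 cells and 64.9 and 62.0 in other cells, but missed the call against other cells with TAC3 limits of 1 or 10 UMIs. CDX2, a defining trophectoderm factor, was at 0.704 and 0.409 CPM in members against 0.858 and 1.18 in low-TAC3 cells. At these low levels CDX2 was called in neither comparison. No IL1B UMI was found in any group. ELF5 and PPARG were called higher than in other cells and were at 162.2 and 181.1 and at 51.4 and 45.4 CPM in members, against 190.1 and 175.2 and 52.3 and 53.8 in low-TAC3 cells.

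Of 7 tested keratin genes 5 were called higher than in other cells and none lower. Against low-TAC3 cells 3 of 6 were higher, KRT80 was lower, and KRT19 and KRT15 were not called. The calls of KRT80 depended on the settings, since 5 others did not call it against low-TAC3 cells and its log2 fold change against other cells was -0.15 with at least 10 TAC3 UMIs. KRT8 was at 8724 and 8593 CPM in members, 7074 and 6475 in low-TAC3 cells and 4640 and 4285 in other cells, and KRT18 at 7961 and 8394, 6089 and 6166, and 3597 and 3627. Both were called higher in both comparisons, and so was KRT7. Of 20 genes of epithelial junctions 16 were called higher than in other cells and none lower, and 7 were higher than in low-TAC3 cells, among them the E-cadherin gene CDH1 at 265.3 and 263.9 CPM in members against 220.1 and 220.8. These 7 became 1 with at least 20 GABRP UMIs, 2 without the filter on low counts, 3 with at least 1 TAC3 UMI and 4 with limits set as rates, while the replicate block called 10 higher and 1 lower. Of 14 tested genes of ion and water transport, 8 were higher and 1 lower than in other cells, but against low-TAC3 cells only FXYD3 of 13 was called. FXYD3 lost that call with at least 1 TAC3 UMI and without the filter on low counts, and the replicate block added 2 lower calls against each group. Against low-TAC3 cells the median log2 fold change was 0.12 for junction genes and -0.07 for transport genes, compared with 0.52 and 0.51 against other cells.

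Of 19 listed amnion-associated genes besides GABRP, 10 were called higher than in other cells and 1 lower, and 10 were higher than in low-TAC3 cells and 1 lower. With the replicate block 2 were lower in each comparison. The 10 genes higher than in low-TAC3 cells became 7 by the DESeq2 test and without the filter on low counts. They became 8 with at least 20 GABRP UMIs, with at least 1 TAC3 UMI and with limits set as rates. With the cells of high ISG15 or collagen kept they were also 8. ISL1, a transcription factor of amnion and heart progenitors, was at 126.4 and 123.3 CPM in members, 93.3 and 79.2 in low-TAC3 cells and 53.0 and 40.8 in other cells. The signal WNT6 was at 264.8 and 268.0 CPM in members, 215.5 and 202.0 in low-TAC3 cells and 95.8 and 84.5 in other cells. MSX2, a target of BMP signals, was at 188.6 and 180.8 CPM, then 130.7 and 121.3, then 86.3 and 75. The lists share genes, since HAND1 and TFAP2A stand in both the trophectoderm and the amnion list, and LRP2 and DLX5 of the amnion list were the genes called lower. LRP2 was lower than in low-TAC3 cells, though not by DESeq2 or without the filter on low counts, and DLX5 lower than in other cells.

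Other BMP and WNT genes moved in both directions. Of 16 BMP and ID genes 4 were higher and 4 lower than in other cells, while against low-TAC3 cells ID1, ID2, BAMBI, MSX1 and MSX2 were higher and BMP4 lower. BMP4 lost its call against both groups with the cells of high ISG15 or collagen kept, where 1 of the 4 lower calls against other cells was left, and against low-TAC3 cells also with at least 1 TAC3 UMI. ID2 lost its call against low-TAC3 cells under 5 of the other settings. BMP4 was at 20.7 and 19.0 CPM in members, 29.9 and 29 in low-TAC3 cells and 48.5 and 36.1 in other cells. Of 16 WNT genes AXIN2, LEF1, RNF43 and WNT6 were called higher than in other cells and NKD1, SP5, ZNRF3, NOTUM and DKK1 lower, with a median log2 fold change of -0.37. AXIN2, LEF1 and WNT6 were also higher than in low-TAC3 cells, where none of 13 tested was lower and the median was 0.11. With the replicate block, and also without doublets, 1 WNT gene was lower there. AXIN2 lost both calls with at least 1 TAC3 UMI and without the filter on low counts. NKD1, an inhibitor of WNT signals, was at 2.37 and 1.72 CPM in members, 2.04 and 1.41 in low-TAC3 cells and 19.1 and 11.1 in other cells. LEF1, a transcription factor of the WNT pathway, was at 72.9 and 68.0 CPM in members, 43.0 and 36.6 in low-TAC3 cells and 49.5 and 44.7 in other cells.

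CYP17A1, the steroid 17-hydroxylase on the way from progestins to androgens, was at 606.0 and 573.5 CPM in members, 422.0 and 361.5 in low-TAC3 cells and 130.2 and 101.9 in other cells (log2 fold change against low-TAC3 cells 0.66 ± 0.07, edgeR adjusted p = 2.8e-04). The other steps of steroid synthesis were uneven. FDXR, which passes electrons to mitochondrial P450 enzymes, was at 78.5 and 87.6 CPM, then 62.0 and 68.3, then 35.1 and 38.7, and was called higher in both comparisons. CYP11A1, which makes pregnenolone from cholesterol, was at 9.98 and 20.4 CPM in members and 17.9 and 26.7 in low-TAC3 cells, and was called only against other cells (6.23 and 8.91). STAR, which carries cholesterol into mitochondria, stayed between 1.92 and 2.68 CPM in all groups. CYP19A1, the aromatase, was at 0.768 and 0.409 CPM in members and 1.01 and 1.24 in low-TAC3 cells, and HSD3B1 had no UMI in members. Of 16 tested genes of the list 7 were higher and 1 lower than in other cells, and against low-TAC3 cells CYP17A1, FDXR and SULT1E1 were higher and none was lower. With the replicate block 5 of the 12 tested were higher and 2 lower, CYP11A1 among the lower. FDXR lost its call against low-TAC3 cells under 4 settings, with log2 fold changes of 0.18 to 0.40, and CYP11A1 lost its call against other cells under 5.

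Cell cycle genes were lower in members. All 14 listed S phase genes and all 14 G2M genes were called lower than in other cells, with median log2 fold changes of -0.72 and -0.85. Against low-TAC3 cells 13 of 14 S phase genes and all 14 G2M genes were called lower, with medians of -0.43 and -0.62, where 5.28% of all tested genes were lower. The S phase count fell to 6 when members needed only 1 TAC3 UMI, to 7 without the filter on low counts and to 9 when 20 GABRP UMIs were needed. The summed level of the 14 G2M genes was 748.9 and 757.1 CPM in members, 1159 and 1192 in low-TAC3 cells and 1442 and 1492 in other cells. TOP2A, the topoisomerase of dividing cells, was at 88.8 and 93.2 CPM in members, 154.6 and 155.4 in low-TAC3 cells and 191.2 and 194.9 in other cells. PCNA, the sliding clamp of DNA replication, was at 60.3 and 59.5 CPM, then 84.2 and 102.5, then 136.8 and 146.9. After thinning, 8.22% and 9.79% of members had a UMI of the proliferation marker MKI67, against 16.1% and 17.0% of low-TAC3 cells and 19.6% and 20.6% of other cells.

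Members also held fewer UMIs per cell than the other groups, and how UMI count relates to these genes was not tested directly. In cells of 20000 to 40000 UMIs only, all 14 S phase and all 14 G2M genes were lower than in other cells with medians of -1.14 and -1.25, and 13 and 14 were lower than in low-TAC3 cells with medians of -0.66 and -0.81. SLBP was the listed S phase gene that missed the threshold against low-TAC3 cells, at 92.7 and 89.3 CPM in members and 103.2 and 108.7 in low-TAC3 cells.

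**Figure D3:**
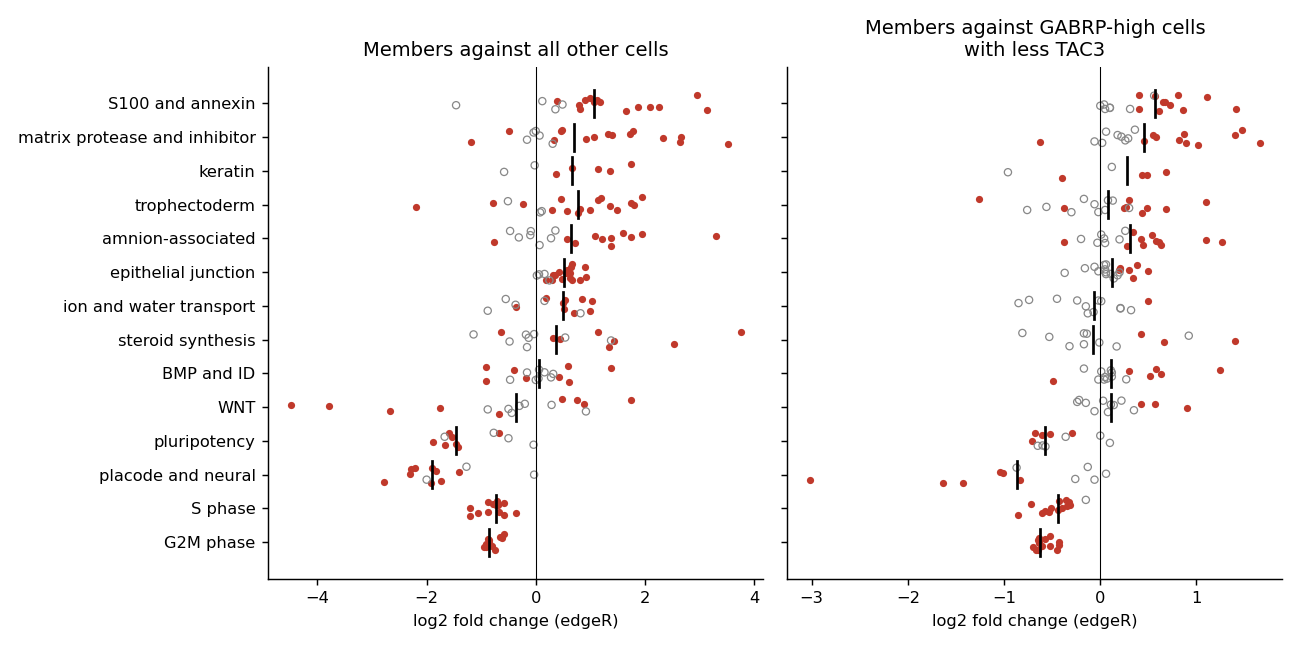
Log2 fold change by edgeR of each tested gene of 14 lists, members against all other cells (left) and against low-TAC3 cells (right). Red points were called at an adjusted p under 0.05, open points were not, and black bars are the medians of the lists. The S phase and G2M genes lie to the left of 0 in both panels, and the S100 and annexin list has the highest median in both, 1.06 and 0.57.

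Of 11 pluripotency genes 7 were called lower and none higher than in other cells, and 5 were lower than in low-TAC3 cells. The 5 became 0 without the filter on low counts, 1 with at least 1 TAC3 UMI, 2 with at least 20 GABRP UMIs, 2 with the cells of high ISG15 or collagen kept and 3 with limits set as rates. SOX2 was at 9.85 and 11.5 CPM in members, 15.1 and 17.0 in low-TAC3 cells and 30.0 and 39.6 in other cells. POU5F1 was at 19.4 and 29.8 CPM in members and 66.2 and 99.1 in other cells. Their summed level was 175.8 and 205.1 CPM in members and 402.4 and 513.3 in other cells, and NANOG was at 0.384 and 0.164 CPM in members. Of 12 placode and neural genes 9 were lower than in other cells and none higher, and EYA2, PAX6, KCNAB1, NRXN3, CRABP1 and NEUROG1 were also lower than in low-TAC3 cells. That count fell to 2 with at least 20 GABRP UMIs and to 3 with at least 1 TAC3 UMI. The log2 fold change of CRABP1 was 0.40 where members needed only 1 TAC3 UMI, and that of PAX6 was 0.41 where the limits were set as rates per cell total, and neither was called there. NEUROG1, a factor of sensory neurons, was at 1.09 and 1.47 CPM in members, 11 and 10.5 in low-TAC3 cells and 7.77 and 6.11 in other cells. Of 10 tested hypoblast genes GATA6, GATA4, PDGFRA and NID2 were called lower than in other cells and APOE, the apolipoprotein E gene, was higher, and against low-TAC3 cells APOE was higher and APOA1 lower of 7. With the cells of high ISG15 or collagen kept, the 4 lower calls against other cells became 1 and the median log2 fold change went from -1.58 to -0.69, while against low-TAC3 cells 3 were higher and 1 lower with a median of 0.79. The summed level of the hypoblast list was 865.3 and 919.5 CPM in members, 841.0 and 897.8 in low-TAC3 cells and 921.1 and 969.0 in other cells. APOE was at 711.8 and 726.4 CPM in members, 553.1 and 567.4 in low-TAC3 cells and 663.0 and 726.4 in other cells, so its log2 fold change against other cells of 0.23 ± 0.06 (edgeR adjusted p = 0.020) rests in library 2 on the scaling by TMM, a factor for library composition that the CPM values do not include. APOE lost that call with at least 1 TAC3 UMI and without the filter on low counts. The endoderm factor GATA6 was at 5.12 and 5.56 CPM in members, GATA4 at 1.73 and 0.491, and FOXA2 had no UMI there.

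The 10 genes furthest below low-TAC3 cells were EYA2, KCNAB1, ROBO2, SOX6, PLET1, SGIP1, SRRM4, FABP3, CRABP1 and TMEM132D, with log2 fold changes of -1.0 to -1.64. Of these, EYA2, KCNAB1, ROBO2, SOX6, PLET1, FABP3, CRABP1 and TMEM132D each lost the call under at least 1 other setting. ROBO2, a receptor for guidance signals of axons, was at 43.6 and 28.5 CPM in members, 106.5 and 97.9 in low-TAC3 cells and 174.4 and 164.4 in other cells. EYA2, a cofactor of placode development, was at 8.57 and 6.30 CPM, then 26.5 and 22.9, then 39.3 and 40.5. PLET1, a placental surface gene, was at 10.2 and 12.4 CPM in members, 21.2 and 35.0 in low-TAC3 cells and 19.7 and 23.8 in other cells. Among the genes furthest below other cells were TWIST1, MYL4, CRABP1, EPHA7, SLC8A1, CDH11, PAX6, EYA2 and NTM, with log2 fold changes of -2.18 to -3.24. Part of them belong to mesenchyme, which the limit on collagen keeps out of the members, so their fall against other cells is partly given by the rule.

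Against low-TAC3 cells, under the same limit, 2 of 9 mesenchymal and cardiac genes were called higher in members and none lower. The replicate block called 2 lower, with at least 10 TAC3 UMIs 4 were lower, and with at least 20 GABRP UMIs 4 of 8 were higher. VIM, the intermediate filament of mesenchyme, was at 60 and 64.0 CPM in members and 26.4 and 24.5 in low-TAC3 cells, and COL1A1 at 16.4 and 11.2 against 6.45 and 6.63. COL3A1, a gene of the rule, was at 29.4 and 22.2 CPM in members and 11.5 and 7.37 in low-TAC3 cells. Other cells held 162.0 and 113.6 CPM of VIM. DCN, LUM, TWIST1 and the heart muscle genes of the list were not called against low-TAC3 cells, and in members DCN was at 1.15 and 0.982 CPM and LUM at 0.832 and 0.245. The part of doublets or free RNA in the VIM and COL1A1 levels was not tested. Of 10 genes of stress after dissociation 8 were higher than in other cells, and FOS, DDIT3 and GADD45B were also higher than in low-TAC3 cells. Those 3 became 6 with the replicate block, 1 with at least 20 GABRP UMIs and 0 without the filter on low counts. FOS was at 64.2 and 58.5 CPM in members, 49.6 and 39.4 in low-TAC3 cells and 40.1 and 30.7 in other cells. The part of stress in other results was not tested. Of 13 interferon-stimulated genes besides ISG15, 6 were lower and IRF7 was higher than in other cells, where the limit on ISG15 acts, and of 9 tested against low-TAC3 cells only IRF7 was called, as higher. With the cells of high ISG15 or collagen kept, none was lower than in other cells and 4 of 12 were lower than in low-TAC3 cells, where the replicate block called 3 of 9 higher and 1 lower. Of 10 tested genes of the Hippo list 6 were higher than in other cells, and of 8 surface ectoderm genes 5 were, with none lower in either list, although the replicate block called 1 surface ectoderm gene lower. Against low-TAC3 cells WWTR1 and AXL of the Hippo list were higher and ANKRD1 lower, with a median log2 fold change of 0.10, and the replicate block called 4 higher and 2 lower. Of 7 tested surface ectoderm genes 3 were higher than in low-TAC3 cells, TFAP2B and PERP among them, and none lower, with a median of -0.15. The replicate block called 1 of them lower, as did 3 other settings. The calls of WWTR1, AXL, ANKRD1 and TFAP2B against low-TAC3 cells were each lost under at least 2 of the other settings.

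Members differed widely in TAC3, and they were split by their TAC3 count into 3 to 9 UMIs (226 and 214 cells), 10 to 29 (142 and 99), 30 to 99 (74 and 61) and 100 or more (8 and 4). The median UMI count per cell in these bins was 27325 and 26938, 26447.5 and 23329, 23644.5 and 22763, and 25590.5 and 34068.5. GABRP itself was at 876.3 and 919.5 CPM in the first bin, 1079 and 1262 in the second and 1324 and 1525 in the third. The last bin holds under 10 cells per library, and its values are left to the plot of levels by TAC3 count.

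CST3 was at 437.5 and 432.3 CPM in cells with no TAC3 UMI, at 939.3 and 906.5 with 3 to 9 UMIs, 1300 and 1786 with 10 to 29 and 3080 and 3044 with 30 to 99. S100A6 was at 1632 and 1827 CPM with no TAC3 UMI and at 2880 and 2655, 4742 and 5959, and 8797 and 8888 in the 3 bins of members. NOV stood at 18.4 and 15.3, 25.2 and 23.4, and 96.2 and 123.5 CPM in the 3 bins. These genes were higher in each bin than in the one before it in both libraries. MDK, which encodes midkine, the growth factor most like pleiotrophin, was at 2175 and 2197, 2677 and 3191, and 3819 and 4338 CPM, and PTN at 105.6 and 75.7, 140.5 and 135.1, and 428.1 and 255.2.

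Other genes fell along the same bins. CXCL14, a chemokine of epithelia, was at 9939 and 9856 CPM over all members, 10298 and 9489 in low-TAC3 cells and 5935 and 5295 in other cells. By bin, CXCL14 was at 11508 and 10871 CPM with 3 to 9 TAC3 UMIs, 9157 and 9727 with 10 to 29 and 6730 and 5892 with 30 to 99. TYMS, an enzyme of DNA precursor synthesis, was at 217.8 and 213.4 CPM with no TAC3 UMI and 179.8 and 171.4, 162.7 and 133.3, and 114.6 and 91.9 in the 3 bins. TOP2A was at 103.5 and 114.0 CPM in the first bin of members, 96.1 and 48.2 in the second and 29.1 and 79.6 in the third, so library 2 was lowest in the second. GATA3 stayed between 173.6 and 199.4 CPM across the 3 bins in both libraries.

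**Figure D4:**
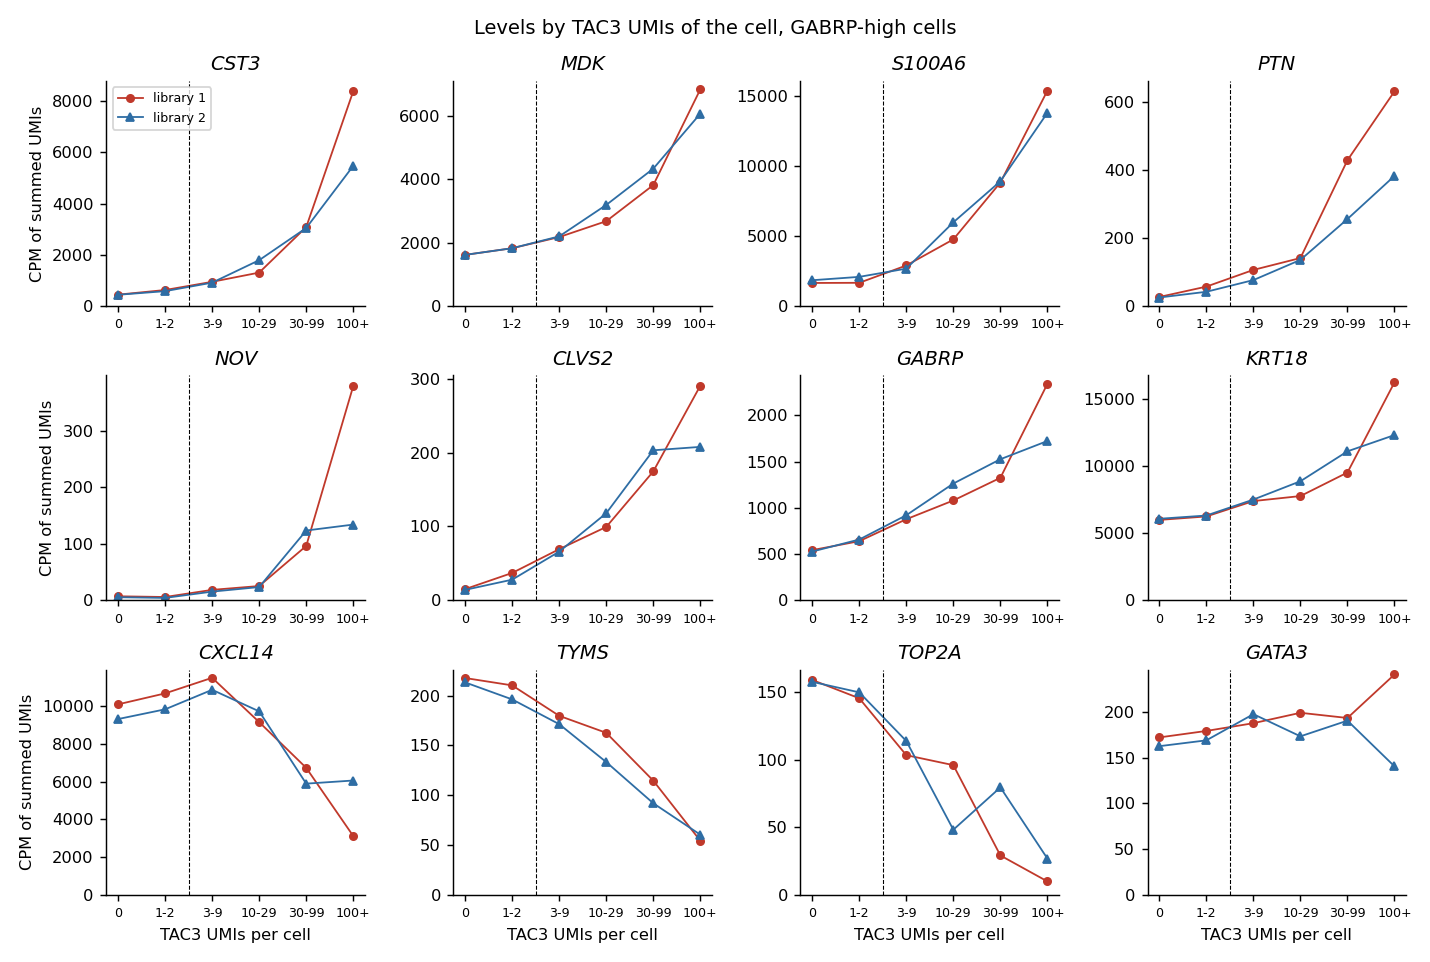
CPM of summed UMIs of 12 genes (y axis, from 0) in GABRP-high cells grouped by their TAC3 UMIs (x axis), library 1 in red and library 2 in blue. The dashed line is the limit of 3 TAC3 UMIs that separates low-TAC3 cells from members, and the last bin holds 8 and 4 cells. CST3, MDK, S100A6 and PTN climb from bin to bin, whereas TYMS falls and GATA3 shows no steady course.

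Over the members, thinned to 10000 UMIs each, Pearson's correlation of log counts with TAC3 was computed for 9466 genes found in at least 20% of members of both libraries, over 450 cells of library 1 and 378 of library 2. Cells of a library share its preparation and are not replicates, so the values are a description. CST3 followed TAC3 most closely, at 0.64 in library 1 and 0.58 in library 2, and MDK came next at 0.59 and 0.57. After them stood S100A6 (0.48 and 0.49), the cystatin gene CSTB (0.47 and 0.50), ITM2B (0.44 and 0.49), S100A10 (0.42 and 0.42), the cathepsin gene CTSH (0.40 and 0.47), S100A11, CYSTM1 and KRT18. Among the genes furthest below 0 were CXCL14 (-0.38 and -0.40), RAN, a GTPase of nuclear transport (-0.33 and -0.37), PSD3 and HNRNPA1. In both libraries 92 genes were at 0.2 or above and 68 at -0.2 or below.

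Several genes that follow TAC3 in members are high over all members, which is not a separate observation because the rule used TAC3. CTSH was at 136.0 and 132.5 CPM in members, 61.5 and 60.6 in low-TAC3 cells and 44.3 and 43.3 in other cells. CSTB was at 1512 and 1426 CPM, then 934.8 and 861.5, then 523.1 and 468.9. Over all members CXCL14 was called higher than in other cells, and against low-TAC3 cells its log2 fold change was 0.07 ± 0.05 (edgeR adjusted p = 0.37), the same value that was called with the replicate block. By CPM, which holds no TMM scaling, members were below low-TAC3 cells in library 1 and above them in library 2.

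The bulk values of pESCs are given for the library named IVFP25, then PA_4P7, then PAP25, in FPKM, which scales fragments to transcript length and library size. TAC3 was at 64.3, 14.6 and 46.1 FPKM and GABRP at 48.2, 51.9 and 21.3. Transcripts of both genes were present in each of these libraries. The library with the least TAC3 had the most GABRP, but the library with the most TAC3 had nearly as much GABRP. In the same order CST3 was at 97.2, 59.2 and 63.4 FPKM and MDK at 351.2, 240.8 and 325.7, while CYP17A1 was at 1.66, 1.27 and 0.656 and CXCL14 at 0.750, 0.0859 and 0.307. HAND1 was listed at 0 in 2 libraries and at 0.143 FPKM in the remaining one, and VTCN1 reached 0.0248 FPKM at most. Bulk FPKM and single-cell CPM are different units and were not compared, and a bulk value does not show which cells of the culture held the transcripts.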

How the data were processed

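Day 6 porcine blastoids were profiled by scRNA-seq in 2 libraries and pESCs by bulk RNA-seq in 3. Per the labels and the paper, the authors counted UMIs with Cell Ranger 7.1.0 on susScr11 after a check with Dr.seq2, and the matrices they deposited hold unnormalized UMI counts for all barcodes. The authors trimmed the bulk reads with Trim Galore 0.6.4, mapped them with HISAT2 2.2.1 and computed FPKM with StringTie 2.2.1, and the deposited FPKM per transcript were added up here by gene symbol. The depth of the bulk libraries is not given in the sources used here.

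A barcode was taken as a cell from 11223 UMIs upward in library 1 and from 9805 in library 2, so cells poor in RNA are missing. The libraries held 289452283 and 302211552 UMIs over all barcodes, and the sums over members held 15633755 and 12225855. Empty droplets were barcodes with 10 to 100 UMIs. Doublets were kept. Scrublet in scanpy 1.11.5 marked 1 and 0 cells by its automatic threshold, so the highest scores at the expected rate (434 and 535 cells) were left out in an alternative only.

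UMIs were summed by library and group, genes of low counts were removed by filterByExpr, and groups were compared with TMM and the quasi-likelihood test of edgeR 4.0.16 in R 4.3.3, with Benjamini-Hochberg adjustment over all tested genes. Each fit held 4 sums. The 5 genes of the rule were not counted. Sums of 1 library come from the same preparation, and their deviations from the group means correlated at 0.390 between members and low-TAC3 cells and 0.452 between members and other cells over 10912 genes. Sums are therefore paired by library, but calls given without a named setting come from fits on the group alone. These fits called fewer genes than the replicate block did, so a gene not called here may be called with the block. The replicate block was tried as an alternative, as were DESeq2 1.42.0, other limits and other filters. The edgeR test was first tried on simulated sums drawn without a library effect, so that trial does not cover paired sums.

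The members and the gene lists were chosen with earlier results of these data known, so no list is independent support of its direction. Named genes were, per comparison, the 15 highest and 10 lowest log2 fold changes among called genes with a symbol, at least 20 CPM in the higher group of both libraries and the same direction in both. Any gene of the lists, and the 10 highest and 5 lowest correlations with TAC3, could also be named. Some genes within this rule are not reported here. Symbols and positions are those of RefSeq for Sscrofa11.1.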

Additional observations from a re-analysis of the deposited data

Results flagged for a closer look

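Barcodes below the UMI limits were not part of any comparison, and some of them met the rule. In library 1, 11 of 3108 barcodes with at least 1000 UMIs and under the limit held the required GABRP, TAC3, ISG15 and collagen counts, which is 0.354% against the 0.0965% that a count of 0 would allow. In library 2 it was 11 of 3661, or 0.30% against 0.0819%. Their median was 9012 UMIs in library 1 and 7657 in library 2, so they lay close to the limits for cells, and adding them would raise the 450 and 378 members by 11 each. The limits in raw UMIs make it harder for such barcodes to qualify, and how many more would qualify at equal depth was not tested.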

How the results depend on the processing

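The number of genes called against low-TAC3 cells was 2171 and depended on the settings. It fell to 1060 with at least 20 GABRP UMIs, 1122 with at least 1 TAC3 UMI, 1039 without the filter on low counts and 1435 with limits set as rates. These settings change which cells or genes are compared, and the cause was not tested beyond that. It rose to 4578 with the library as a replicate block, on the same cells and the same 16297 genes. DESeq2 called 1554. Against other cells the count stayed between 5664 and 8981 under every alternative. The mean share of members was 5.37%, and it moved to 9.26% with at least 1 TAC3 UMI, 2.52% with at least 10, 4.23% with at least 20 GABRP UMIs and 6.78% with the cells of high ISG15 or collagen kept. By library it was 4.62% and 6.11%, which is the range when 1 library is left out. Counts of calls with 1 library left have no residual degrees of freedom and were not computed.

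Among log2 fold changes of named genes 7 changed sign where the main fit or the refit called the gene. Sign changes of genes called in neither were not counted. With at least 10 TAC3 UMIs MME went to -0.02 and KRT80 to -0.15 against other cells, where KRT80 went to -0.05 with limits as rates. Against low-TAC3 cells CRABP1 went to 0.40 with at least 1 TAC3 UMI, MYL4 to 1.67 with at least 20 GABRP UMIs, PAX6 to 0.41 with limits as rates and NID2 to 0.89 with the cells of high ISG15 or collagen kept, and the cause was not tested. MYL4 and NID2 were not called by the main fit of that comparison, and it was the refit that called them, as higher in members. Of the other values under a refit, 1576 against other cells and 1528 against low-TAC3 cells stayed on the same side of the threshold. Another 36 and 114 lost the call, and 13 and 24 gained it. With 1 library left out, 93 values against other cells moved by more than their SE and 179 did not, and against low-TAC3 cells 95 moved and 165 did not. The replicate block reversed no value that was called in the main fit or with the block. Members hold fewer UMIs per cell than low-TAC3 cells, and their sums of 15633755 and 12225855 UMIs limit what can be called among rare genes such as the receptors.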
